A study of Rattus norvegicus with 232 samples.

Results

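The proteasome is the protease of the cell that degrades proteins tagged with ubiquitin, and its genes were examined here in brains of inbred rats. Genes of the RefSeq table were taken by symbol, namely those beginning with Psma, Psmb, Psmc, Psmd, Psme, Psmf or Psmg, without the 3 inducible subunits Psmb8, Psmb9 and Psmb10 of the immunoproteasome. This gave 47 genes of 20859 in the table. By role they were 7 subunits of the 20S alpha ring, 7 of the 20S beta ring, 6 ATPases of the 19S base, 3 other subunits of that base, 8 subunits of the 19S lid, 7 assembly chaperones, 5 activators or inhibitors, and 4 others (Psma8, Psmb11, Psmc3ip and Psme3ip1). RNA was sequenced from whole brain of untreated rats. They came from the Hybrid Rat Diversity Panel, here 74 inbred strains. For the strains that the study's methods describe, which are a part of the 74, each library stands for one hemisphere of an animal. Of 232 labelled samples 148 were from males, and 84 carry no sex label. The table held 214 libraries of 197 animals. Tests used the 69 strains with 2 or 3 animals each, 192 animals in all, of which 30 strains belonged to the HXB/BXH recombinant inbred family, 16 to the FXLE/LEXF family and 23 to the classic inbred strains. The HXB/BXH family was bred from the classic inbred strains SHR/OlaIpcv and BN-Lx/Cub, and an inbred strain stands for 1 genotype, so that a strain difference cannot be assigned to any 1 gene.

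In the 20S core, 7 alpha subunits form the outer rings that gate the chamber, and 7 beta subunits form the inner rings, among which Psmb5, Psmb6 and Psmb7 carry the catalytic sites. The 19S particle binds ubiquitin chains, removes them with the lid enzyme Psmd14 and unfolds the substrate with the ATPase ring Psmc1 to Psmc6. Other caps open the core without ubiquitin, namely PA28 (Psme1, Psme2 and Psme3) and PA200 (Psme4), while Psmf1 inhibits it. In many cells the transcription factor Nfe2l1 raises the subunit genes together when proteasome activity is short. Psma8 and Psmb11 encode subunits known from testis and thymus. Psmc3ip is known for its part in meiotic recombination, and Psme3ip1 encodes a binding partner of Psme3.

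Sequence just upstream of the transcription start is shown for 6 genes on which the results turn. Psma4 and Psmc6 varied together over animals, and Psmd3 and Psmc3 moved against them. Psmb6 and Psme4 were called for a strain effect. Each line gives the 250 bases before the RefSeq start on build GRCr8, 5′ to 3′ on the strand of the gene. Capitals mark the letters TGACNNNGC (the antioxidant response element bound by Nfe2l1 and Nfe2l2), CCAAT (the box bound by NF-Y) and GGGCGG (the box bound by Sp1), on either strand, and where boxes overlap the capitals run on.
Psma4 (chr8:64236270-64236519, + strand): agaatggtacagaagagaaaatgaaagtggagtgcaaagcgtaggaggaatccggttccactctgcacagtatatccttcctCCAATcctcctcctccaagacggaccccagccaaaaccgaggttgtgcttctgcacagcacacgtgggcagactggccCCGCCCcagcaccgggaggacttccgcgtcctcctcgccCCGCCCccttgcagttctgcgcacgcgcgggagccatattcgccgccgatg
Psmc6 (chr15:21022064-21022313, + strand): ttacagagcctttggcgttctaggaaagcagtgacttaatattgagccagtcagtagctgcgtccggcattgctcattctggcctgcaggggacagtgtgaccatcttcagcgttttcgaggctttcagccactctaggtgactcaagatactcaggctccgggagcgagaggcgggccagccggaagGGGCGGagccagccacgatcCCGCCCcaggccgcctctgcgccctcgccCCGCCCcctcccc
Psmd3 (chr10:84139688-84139937, + strand): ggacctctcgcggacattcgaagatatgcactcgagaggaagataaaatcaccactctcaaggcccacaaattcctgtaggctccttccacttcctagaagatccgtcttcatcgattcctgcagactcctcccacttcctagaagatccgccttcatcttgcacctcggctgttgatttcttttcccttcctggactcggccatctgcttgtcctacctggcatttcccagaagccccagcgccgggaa
Psmc3 (chr3:97487393-97487642, + strand): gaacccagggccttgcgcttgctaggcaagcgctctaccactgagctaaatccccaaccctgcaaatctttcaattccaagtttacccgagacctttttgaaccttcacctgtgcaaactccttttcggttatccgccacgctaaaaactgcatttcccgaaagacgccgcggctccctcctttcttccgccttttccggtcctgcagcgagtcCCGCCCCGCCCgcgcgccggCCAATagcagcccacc
Psmb6 (chr10:55737638-55737887, + strand): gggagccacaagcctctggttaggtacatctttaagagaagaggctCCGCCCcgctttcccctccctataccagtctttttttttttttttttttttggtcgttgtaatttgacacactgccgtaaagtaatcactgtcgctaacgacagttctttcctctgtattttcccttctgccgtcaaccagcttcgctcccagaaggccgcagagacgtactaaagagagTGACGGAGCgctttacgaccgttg
Psme4 (chr14:108706393-108706642, + strand): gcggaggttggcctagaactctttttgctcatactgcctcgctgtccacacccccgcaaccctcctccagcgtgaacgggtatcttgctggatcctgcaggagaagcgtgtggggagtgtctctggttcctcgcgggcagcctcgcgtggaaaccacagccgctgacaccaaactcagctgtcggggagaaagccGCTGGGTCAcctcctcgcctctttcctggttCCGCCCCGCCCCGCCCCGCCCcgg
Of the 47 genes, 42 had such a sequence. GGGCGG stood in 30 of these 42 (71.4%) and in 30.5% of all 33469 promoters of the same length. CCAAT stood in 21 (50%) against 34.0% of all, and TGACNNNGC in 7 (16.7%) against 10.1% of all. Among the lines above, GGGCGG was found 3 times in Psmc6, 2 times in each of Psma4 and Psmc3, 4 times in Psme4 and 1 time in Psmb6. CCAAT was found 1 time in each of Psma4 and Psmc3, and TGACNNNGC 1 time in each of Psmb6 and Psme4. No match to any of the 3 motifs was found in Psmd3, which says only that these letters are not in this window.

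The table gives values on a log2 scale and no counts, so that the depth of each library is unknown and the number of animals sets the precision. Library medians ran from 8.18 to 8.42. By the names of the value columns there were 17 batches, with 62 of 69 strains spread over at least 2. For some animals the sample titles give another sequencing batch, and the batch of the column name was used throughout. The 284 genes with the highest strain dependence (R2 over 0.8) were picked with the strain labels of these same animals, which favours a match to the labelled strain. At these genes, 190 of 192 animals were nearest to an animal of their own strain. The exceptions were LEW/Crl animal 3, which lay nearest to LEW/SsNHsd, and LEXF2C/Stm animal 3, which lay nearest to LEXF7B/Stm. BN-Lx/Cub animal 1 had the lowest median correlation with the other animals (r = 0.992, against a median of 0.997 over animals). Calls and counts that turn on BN-Lx/Cub animal 1 or LEXF2C/Stm animal 3 are given with and without them.

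The genes of the proteasome varied little between strains. Strain R2, the share of the variance between animals that lies between strains, had a median of 0.398 over the 47 genes, with a range from 0.308 for Psmb5 to 0.529 for Psma8. The median over all genes was 0.434, and the value expected with no strain effect in this layout is 0.356. Of the 47 genes, 10 lay below that value, and 1 (Psma8) exceeded 0.5, as did 23.6% of all genes. By limma's moderated F-test over strains at a false discovery rate (FDR) of 5%, 4 of 47 genes (8.51%) were called, against 37.1% of all genes tested. With an unadjusted p under 0.05 there were 9, against 48.7% of all genes. Of the 42 members expressed above the median gene, 3 were called, against 35.3% of all such genes. Within a strain, animals differed by a median SD of 0.141 over members, and strain means by 0.0898. Over all genes these medians were 0.162 and 0.117.

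**Figure D1:**
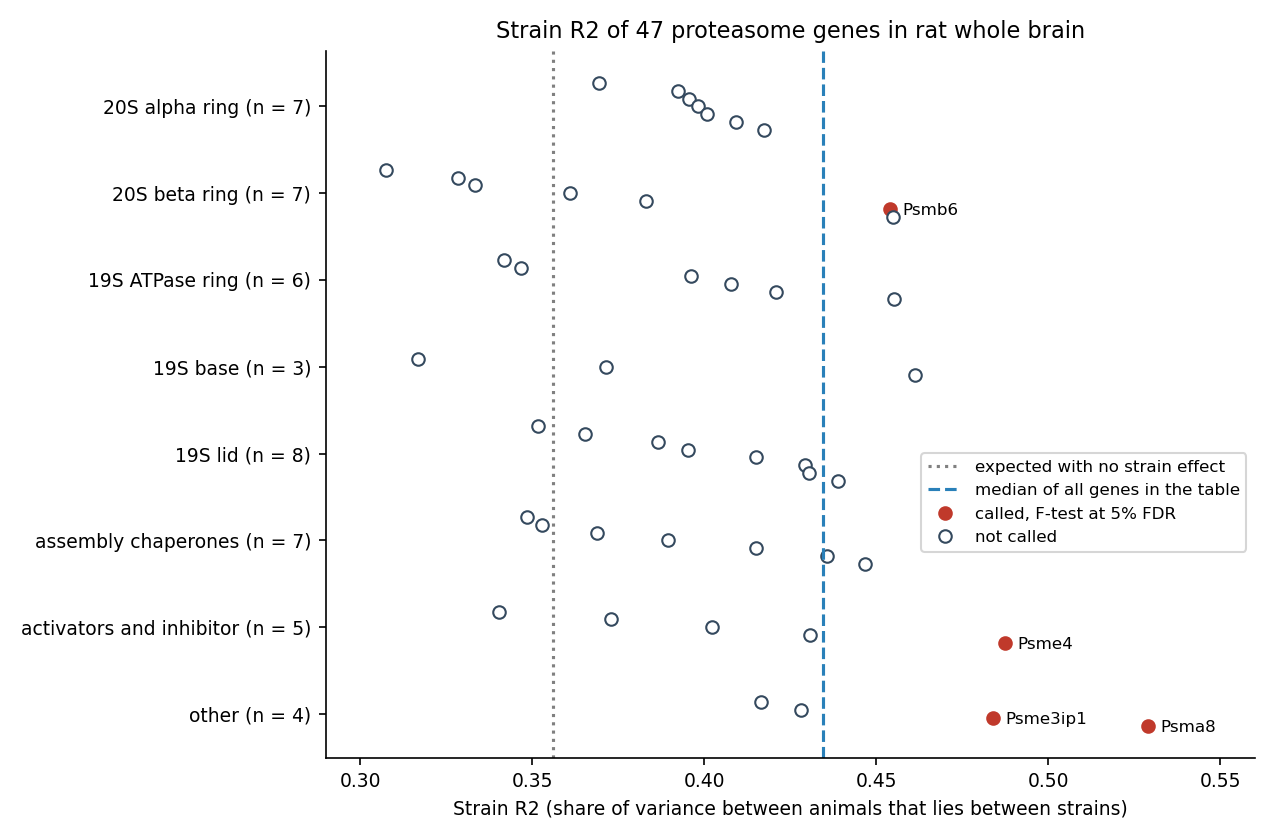
Strain R2 of each of the 47 proteasome genes (points, x axis, no unit) by role (y axis), with the value expected with no strain effect (dotted line, 0.356) and the median of all genes (dashed line, 0.434). Filled points are the 4 genes called by the F-test at 5% FDR. Most points lie left of the dashed line.

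By role, the median R2 was 0.398 for the alpha ring, 0.361 for the beta ring, 0.402 for the ATPases, 0.371 for the other subunits of the base, 0.405 for the lid, 0.390 for the chaperones, 0.402 for the activators and inhibitor and 0.456 for the other genes. None of the 7 alpha ring genes, 6 ATPases, 3 base subunits, 8 lid subunits or 7 chaperones passed the F-test. Of the catalytic subunits, Psmb5 had the lowest R2 of all 47 genes, and its strain means ran from 10.97 in BXH2/Cub to 11.38 in HXB2/Ipcv. Psmb7 (R2 = 0.455, adjusted p = 0.0802 by the moderated F-test) and the base scaffold Psmd1 (R2 = 0.461, adjusted p = 0.0539) did not pass, nor did the ATPase Psmc1 (R2 = 0.455, adjusted p = 0.0778) or the chaperone Psmg4 (R2 = 0.447, adjusted p = 0.0818).

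The called genes were Psma8, the cap gene Psme4, Psme3ip1 and the catalytic subunit Psmb6. Psma8 (R2 = 0.529, adjusted p = 0.00172) had the lowest mean level of the 47, 2.72, far below the median gene of the table (8.32). Its animals ran from 2.28 to 3.26. Its strain means were lowest in HXB7/Ipcv (2.45), had a median of 2.72 and were highest in BXH3/Cub (3.04). In the 2 older gene tables Psma8 had an R2 of 0.393 (v6) and 0.413 (oldest). Its strain means there correlated with these at 0.626, the lowest of the members in v6, and at 0.497. Psme4 (R2 = 0.487, adjusted p = 0.0126) ran from 10.90 in HXB2/Ipcv over a median of 11.17 to 11.53 in BN-Lx/Cub. For Psme3ip1 (R2 = 0.484, adjusted p = 0.0417) the strain means were lowest in LEXF11/Stm (10.16) and highest in BDIX/NemOdaMcwi (10.41). Psmb6 (R2 = 0.454, adjusted p = 0.0454) ran from 10.42 in BXH2/Cub over a median of 10.98 to 11.26 in FXLE20/Stm. For each of these genes the SD between animals of a strain (0.153, 0.154, 0.0740 and 0.209 in the same order) exceeded the SD of the strain means (0.131, 0.123, 0.0599 and 0.155). With the batch of the column name as a covariate 8 of the 47 were called (54.6% of all genes), and with 1 library per animal 2 (35.6%). Without replicate 1 of each strain 0 were called (15.6% of all genes), without replicate 2 also 0 (14.8%), and without replicate 3 7 (30.4%). Without BN-Lx/Cub animal 1 there were 3 (35.9%), and Psme3ip1 was lost (adjusted p = 0.0605). The mean of Psme4 in BN-Lx/Cub was then 11.37, below that of MWF/Hsd (11.42). Over the alternative settings the strain call was kept in 11 of 16 for Psma8 and 15 of 18 for Psme4. It was kept in only 6 of 15 for Psme3ip1 and 8 of 18 for Psmb6. The 8 include the oldest table (adjusted p = 1.31e-20 by the F-test). Its Psmb6 strain means did not follow those given here (r = 0.00743 over 44 strains).

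**Figure D2:**
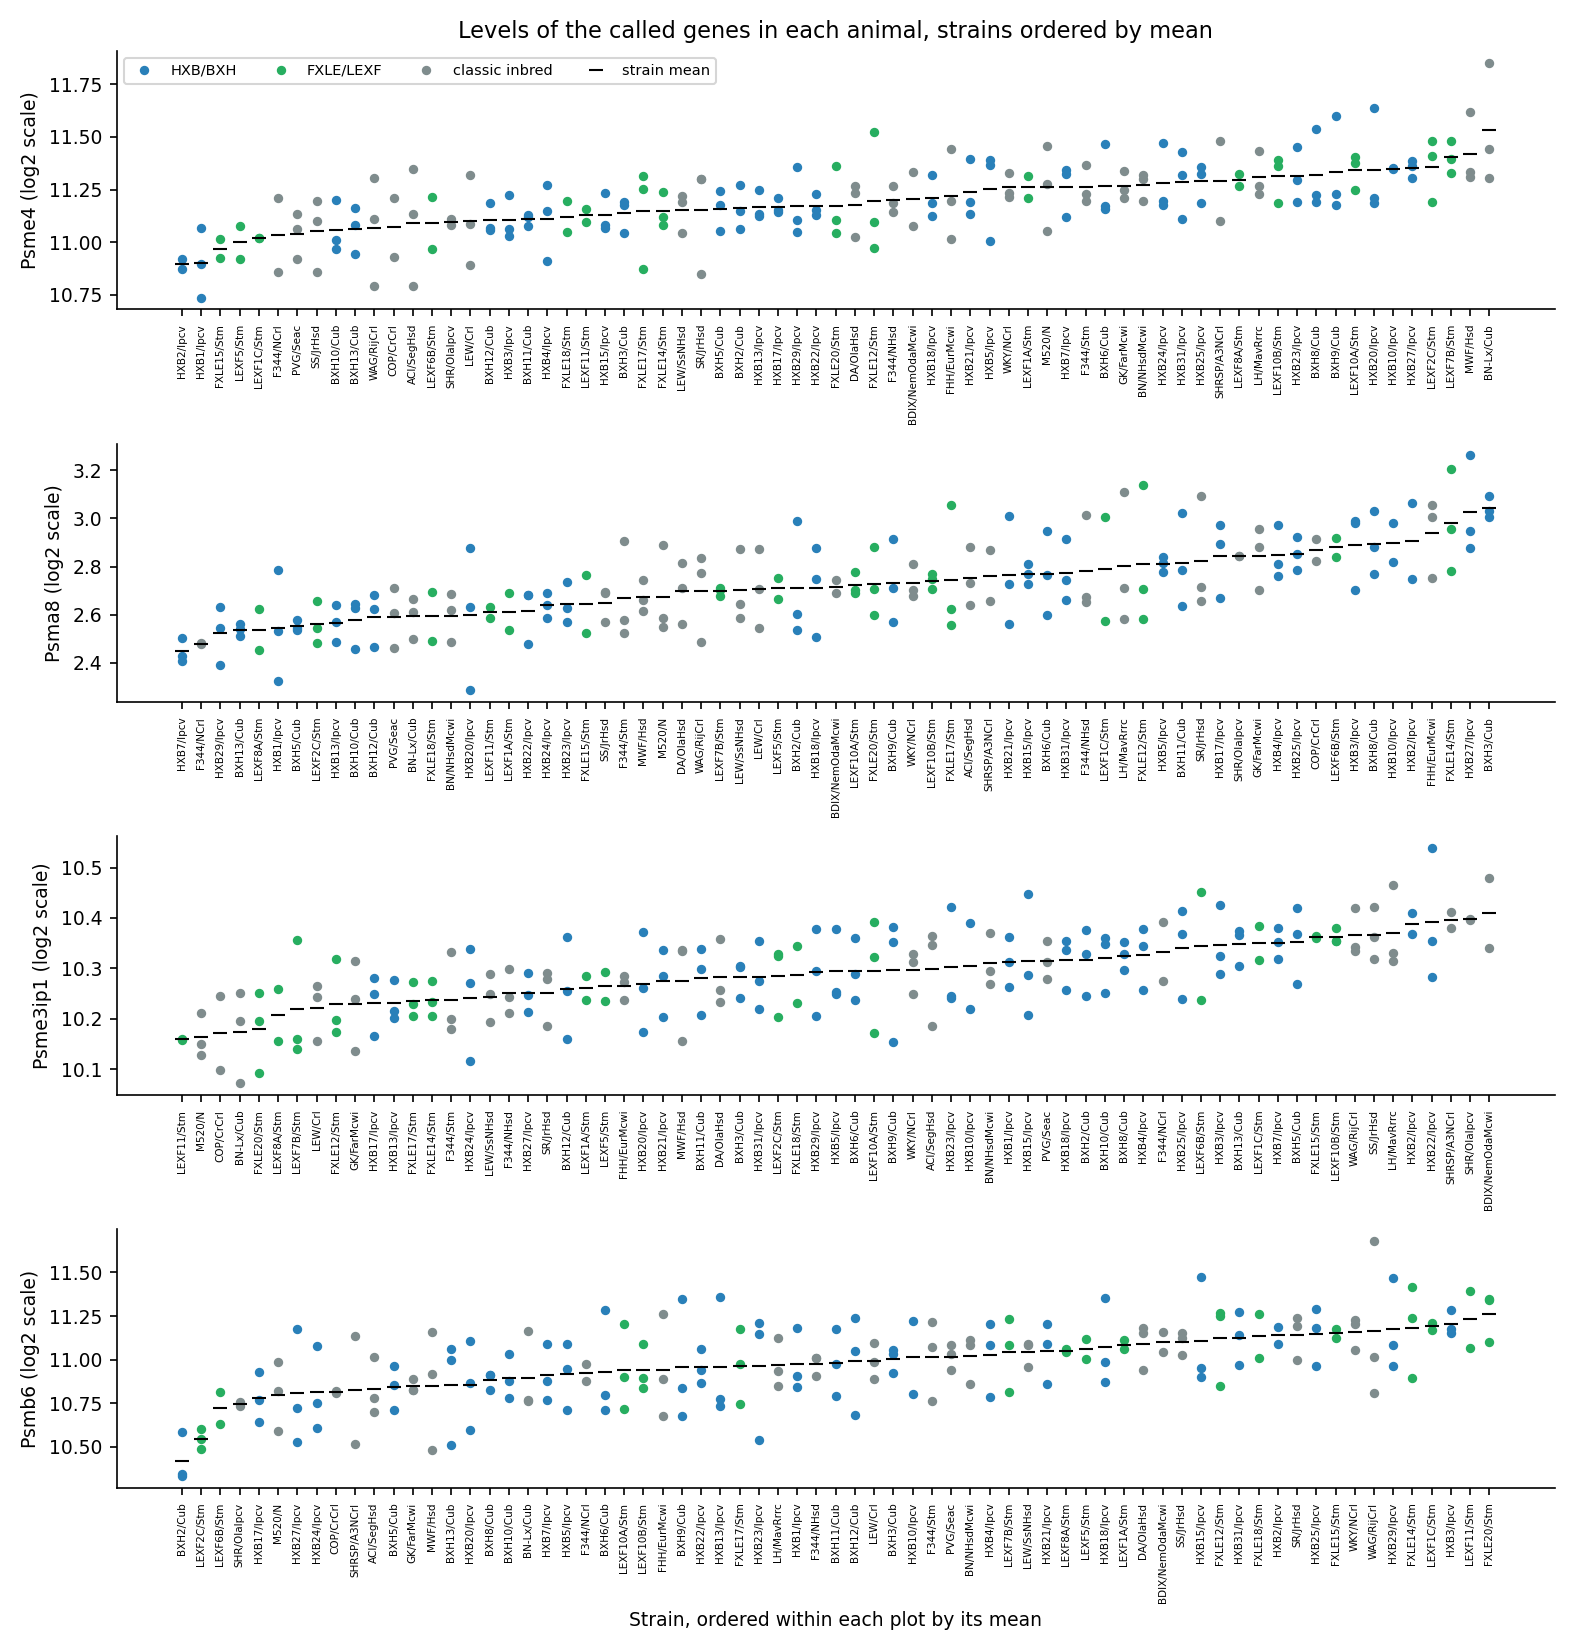
Levels of Psme4, Psma8, Psme3ip1 and Psmb6 (y axes, deposited log2 scale) in each of 192 animals, with strains on the x axes ordered by their mean within each plot. Points are animals coloured by panel and bars are strain means, and the means form a gradual series in which BXH2/Cub and LEXF2C/Stm are lowest for Psmb6.

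Where a gene had several transcripts in the transcript table, its call could be followed further. Transcripts of 44 of the 47 genes were matched, 62 in all, and 2 were called by the same F-test, against 13.9% of all transcripts. One was the single transcript of Psma8 (R2 = 0.522, adjusted p = 0.00797), with strain means from 1.13 in F344/NCrl to 3.48 in BXH3/Cub. The other was 1 of 4 transcripts of Psme4 (R2 = 0.516, adjusted p = 0.00949), lowest in FXLE17/Stm (6.44) and highest in BN-Lx/Cub (8.06). Without animal 1 the mean of BN-Lx/Cub was 7.59, and HXB27/Ipcv was highest (7.83). The curated Psme4 transcript had an R2 of 0.304 and was not called (adjusted p = 0.897). None of the 4 Psme3ip1 transcripts was called, nor was the transcript of Psmb6 (R2 = 0.444, adjusted p = 0.147).

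To find members that leave the group in single strains, each value was set relative to the median of the 47 genes in its animal, and each strain was compared with the mean of the others. Of 3243 gene and strain pairs, 6 were called at 5% FDR (0.185%), against 1.16% of pairs over all genes. Of the 6, 3 were higher (0.687% of all pairs) and 3 lower (0.472%). The largest was a drop of Psmb6 in BXH2/Cub, whose animals had 10.33, 10.34 and 10.59 where animals of the other strains ran from 10.48 to 11.68. Relative to the members it was -0.54 ± 0.12 (SE, adjusted p = 0.00638 by limma). The difference was -0.43 without replicate 2 (adjusted p = 0.265), -0.48 without replicate 3 (0.0828), -0.57 with the batch covariate (0.0763) and -0.38 in v6 (0.141), and the call was lost in each, with adjusted p from 0.00161 to 0.265 over 17 alternatives. In LEXF2C/Stm the Psmb6 values were 10.49, 10.54 and 10.60 (-0.47 ± 0.12, adjusted p = 0.0307). In BXH2/Cub 2 of the 3 animals lay below every animal of the other strains, and the LEXF2C/Stm animals lay within the range of the others. Without LEXF2C/Stm animal 3, the one nearest to another strain, the difference was -0.47 and no longer passed (adjusted p = 0.116). That was not the only loss, since the LEXF2C/Stm call was kept in 10 of 15 alternatives, with adjusted p from 0.0163 to 0.318.

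Psma8 was higher in BXH3/Cub, with 3.01, 3.03 and 3.09 (0.36 ± 0.10, adjusted p = 0.0300), and lower in HXB7/Ipcv, with 2.41, 2.43 and 2.50 (-0.35 ± 0.10, adjusted p = 0.0410). Psmd7, a lid subunit that pairs with Psmd14, was higher in HXB22/Ipcv, with 11.58, 11.62 and 11.63 against 11.13 to 11.69 in the other strains (0.21 ± 0.06, adjusted p = 0.0398). The calls of Psma8 and Psmd7 were lost when any replicate number was left out and in both older gene tables, with adjusted p from 0.0215 to 0.832 over 16 alternatives for Psma8 in BXH3/Cub, from 0.0367 to 0.386 over 16 for Psma8 in HXB7/Ipcv and from 0.0336 to 0.284 over 17 for Psmd7. Without a replicate number the differences were 0.35 to 0.39, -0.39 to -0.31 and 0.20 to 0.24 in the same order. They were 0.47, -0.62 and 0.19 in v6, and 0.06, -0.29 and 0.14 in the oldest table. Psme4 was higher in BN-Lx/Cub, with 11.31, 11.44 and 11.85 (0.31 ± 0.08, adjusted p = 0.0184). The highest of these is the animal that stands apart, and without it the difference was 0.15 (adjusted p = 0.564). On the scale as deposited 6 pairs were called as well (1.28% of all pairs), of which 4 were among those above. The others were Psma4 (-0.39 ± 0.11, adjusted p = 0.0357) and Psma1 (-0.27 ± 0.07, adjusted p = 0.0327), alpha ring subunits that were both low in HXB1/Ipcv. Relative to the members these differences were -0.24 and -0.12 and were not called.

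HXB1/Ipcv and BN-Lx/Cub stood at the ends of many members. HXB1/Ipcv had the lowest strain mean of 11 of the 47 genes, among them Psma1, Psma2, Psma4, Psmc6 and Psmd6, and the highest of Psmc3 (11.75) and Psmd3 (11.56). BN-Lx/Cub had the highest mean of 10 genes and the lowest of 4, including Psmd2 and Psmf1. Without its animal 1 it had the highest mean of 0 genes and the lowest of 2, Psmc4 and Psmf1. These genes share the pattern over animals described below, so that the counts are not independent.

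The progenitors of the HXB/BXH family were compared directly. Of the 47 genes, 2 were called at 5% FDR in the limma contrast, against 4.60% of all genes. Psme4 read 11.31, 11.44 and 11.85 in BN-Lx/Cub, and 11.08 and 11.11 in the 2 SHR/OlaIpcv animals, which are the means of 12 and 6 libraries. The difference was 0.44 ± 0.14 (SE, adjusted p = 0.0453). Psme3ip1 read 10.07, 10.25 and 10.20 in BN-Lx/Cub, against 10.40 in both SHR/OlaIpcv animals, a difference of -0.22 ± 0.07 (adjusted p = 0.0419). Single SHR/OlaIpcv libraries ran from 10.86 to 11.54 for Psme4, which overlaps the BN-Lx/Cub animals, and from 10.30 to 10.49 for Psme3ip1, above the BN-Lx/Cub animals. Both calls were lost without BN-Lx/Cub animal 1, where Psme4 differed by 0.28 (adjusted p = 0.577) and Psme3ip1 by -0.17 (adjusted p = 0.397). Without SHR/OlaIpcv animal 1 or 4 the differences stayed about as large, 0.43 and 0.45 for Psme4 and -0.22 and -0.23 for Psme3ip1. The calls were lost there too (adjusted p from 0.259 to 0.307), in a fit where SHR/OlaIpcv keeps 1 animal that is assumed to vary like the other strains. With 1 library per animal Psme4 differed by 0.34 (adjusted p = 0.252) and Psme3ip1 by -0.16 (adjusted p = 0.29). With the replicate number as a block they differed by 0.40 (adjusted p = 0.195) and -0.21 (adjusted p = 0.189). In the v6 table Psme4 differed by 0.20 (adjusted p = 0.796) and in the oldest table by -0.03 (adjusted p = 0.942). The SHR/OlaIpcv animals differ between tables, being 1 and 4 in the RefSeq table, 1, 3 and 4 in v6, and 1, 2 and 3 in the oldest. There the column name gives animal 3, and 2 labelled samples fit it.

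The 30 HXB/BXH strains are other animals, and the F-test was repeated among their 88 animals. It called 2 of the 47 genes, against 19.2% of all genes. Psma8 had an R2 of 0.616 (adjusted p = 0.000768), with strain means from 2.45 to 3.04, and 22 of 30 strains lay above the mean of BN-Lx/Cub (2.59) and 22 below that of SHR/OlaIpcv (2.85). Psme4 had an R2 of 0.516 (adjusted p = 0.0304), with strain means from 10.90 in HXB2/Ipcv to 11.35 in HXB27/Ipcv. No strain of the family lay above BN-Lx/Cub for Psme4, 4 lay below SHR/OlaIpcv, and 5 lay above the midpoint of the progenitors, or 13 without BN-Lx/Cub animal 1. For Psme3ip1 all 30 strain means, 10.23 to 10.39, lay between those of the progenitors (10.17 and 10.40), and the family showed an R2 of 0.285, below the 0.333 expected with no strain effect.

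Strain means formed more than 1 cluster for 3 of the 47 genes (6.38%), against 8.99% of all genes, in normal mixtures of equal variance chosen by the Bayesian information criterion. These were Psmd10, an assembly chaperone also known as gankyrin, with cluster means of 8.99 and 9.16 and 35 and 34 strains; the lid subunit Psmd12, with 11.21 and 11.38 and 31 and 38 strains; and the chaperone Psmg4, with 7.76 and 7.95 and 23 and 46 strains. The cluster means lay 0.17 to 0.19 apart, close to the SD between animals of a strain (0.164, 0.144 and 0.153). None of the 3 was called by the F-test, and none kept its clusters when the criterion had to improve by more than 6.

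Between panels no member was called, and almost no gene of the whole table was. In limma contrasts of strain means, 0 of 47 genes differed between FXLE/LEXF and the classic inbred strains at 5% FDR (0.00479% of all genes, which is 1 gene), and 2 had an unadjusted p under 0.05, as did 1653 of all genes. These were Psmb11, with a mean of 6.20 ± 0.18 (SD, n = 16 strains) against 6.00 ± 0.24 (n = 23), and Psmd14, with 10.98 ± 0.10 against 11.05 ± 0.09. Between HXB/BXH and the classic inbred strains 0 of 47 were called (0% of all genes), and 0 had an unadjusted p under 0.05, against 488 of all genes. Member differences ran from -0.06 to 0.20 in the first contrast and from -0.04 to 0.03 in the second. Since hardly any gene was called in either contrast, the absence of member calls says little about the members. Batches also differed between panels. In the oldest gene table, with 43 members and no FXLE/LEXF strains, the second contrast called 24 members (49.5% of all genes), with differences from -0.11 to 0.13.

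The genes varied together over animals, although not in a single block. After removal of strain means, the mean pairwise correlation over the 1081 pairs was 0.141 (Pearson, 192 animals), against 0.00397 over all pairs of genes in the table. Over strain means it was 0.137, against 0.00223. Within single batches the mean correlation was taken over library values, with strain differences left in. In the 15 batches of 8 or more libraries that value ran from 0.0301 to 0.304 (median 0.0911), against 0.00113 to 0.0105 over all genes. Among the 1081 pairs with strain means removed, 224 had r above 0.5 and 52 below -0.5. The closest pair was Psma4 with the ATPase Psmc6 (r = 0.927), followed by Psma1 with the lid subunit Psmd6 (r = 0.922). The most opposed pair was Psmc6 with the lid subunit Psmd3 (r = -0.774). The points share the normalization of the table, and these correlations are descriptions.

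**Figure D3:**
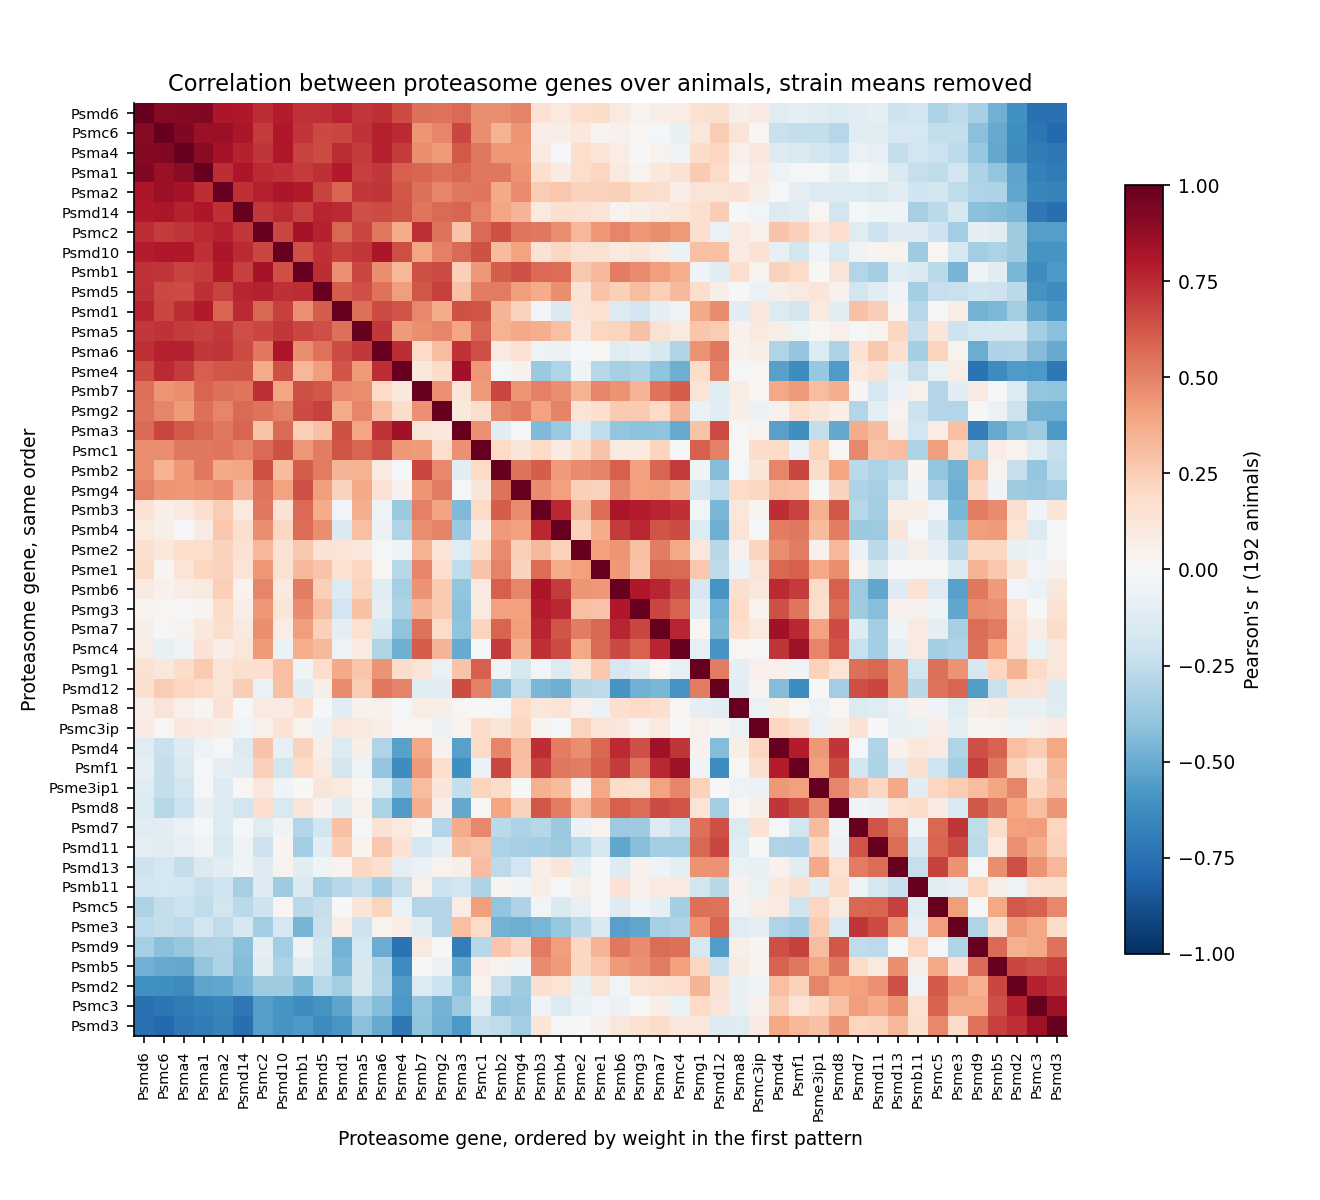
Pearson correlation between the 47 proteasome genes (both axes, ordered by their weight in the first pattern) over 192 animals after removal of strain means, from -1 (blue) to 1 (red). A block from Psmd6 to Psma6 at one end is opposed by Psmd3, Psmc3, Psmd2 and Psmb5 at the other, and a further block around Psmb3, Psmb6, Psma7 and Psmf1 lies between them.

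By role, the mean correlation was highest within the 20S rings, a difference that was not tested. The mean pairwise correlation within strains was 0.485 among the 7 alpha ring genes and 0.482 among the 7 beta ring genes. In the alpha ring 19 of 21 pairs were positive, and the lowest was Psma3 with Psma7 (r = -0.401). In the beta ring 20 of 21 were positive, and the lowest was Psmb1 with Psmb5 (r = -0.110). It was 0.213 among the chaperones and 0.112 in the lid. It was 0.0550 among the 6 ATPases, -0.0608 among the 3 base subunits and -0.0109 among the activators and inhibitor. In the ATPase ring 6 of 15 pairs were positive. Psmc3 and Psmc6, ATPases of the same ring, had r = -0.726. Psmc3 and the lid subunit Psmd3 had r = 0.844, and Psmf1 with the ATPase Psmc4 had r = 0.847.

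The members least like the others over strain means were Psmd3 (mean r = -0.10), Psmc3 (-0.10), Psmd2 (-0.04), Psme3 (-0.01), Psma8 (-0.01) and Psmb11 (0.00). The highest mean was that of the ATPase Psmc2 (0.28). Psmd2, which with Psmd1 forms the scaffold of the base, ran against its partner in the first pattern below, with a weight of -0.156 where Psmd1 had 0.197.

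The shared variation was summarised by principal components of the deviations within strains. The first took 30.9% of the variance of the 47 genes, the second 24.2% and the third 12.7%. Over all genes of the table the first 2 components within strains took 24.1% and 8.47%. The first set Psmd6 (weight 0.246), Psmc6 (0.242), Psma4 (0.241), Psma1 (0.239) and Psma2 (0.234) against Psmd3 (-0.209), Psmc3 (-0.205), Psmd2 (-0.156) and Psmb5 (-0.113). The second was led by Psmf1 (0.263), Psmc4 (0.256), Psmb6 (0.253), Psma7 (0.251) and Psmb3 (0.251), against Psmd12 (-0.214), Psma3 (-0.203) and Psme4 (-0.188). Over strain means the first 3 components took 30.7%, 20.4% and 11.2%, and their weights correlated with those within strains at 0.919, 0.936 and 0.928 across the 47 genes, which are not independent. Means of 2 or 3 animals also carry the variation within strains, so that this likeness is in part built in. Both patterns had low strain R2 (0.381 and 0.356). HXB1/Ipcv had the lowest mean score on the first, with -10.37, -10.86 and -5.03 in its animals. BN-Lx/Cub had the highest, with 17.91, -2.01 and 3.33, and the first of these is the animal that stands apart. Without it the mean of BN-Lx/Cub was 0.660, and LEXF10A/Stm had the highest (5.6).

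Among the 42 genes with a promoter sequence, 28 had a positive and 14 a negative weight in the first pattern. GGGCGG stood in 25 of the 28 and in 5 of the 14, CCAAT in 13 and 8, and TGACNNNGC in 5 and 2. These counts describe all 42 windows and were not tested.

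Libraries of one animal also differed along these patterns. SHR/OlaIpcv animal 1 had 12 libraries in 12 batches and animal 4 had 6, taken here as technical repeats because they share strain and replicate number. Psmc6 ran from 10.93 over a median of 11.37 to 11.57 in the 12 libraries, and from 10.98 to 12.24 over all animals. Psmd3 ran from 10.65 over 11.27 to 11.54 in the 12, and from 10.70 to 11.77 over all animals. For Psmb6 the 12 libraries ran from 9.99 to 11.09, so that the lowest of them lay below every animal mean (10.33 to 11.68). The median SD over members was 0.140 between these 12 libraries, 0.121 between the 6 of animal 4 and 0.141 between animals of a strain. The SD between libraries reached that between animals for 28 of 47 genes in animal 1 and for 13 of 47 in animal 4. Over all genes it did so for 55.9% and 29.5%, and the median SDs were 0.162 between the 12 libraries, 0.134 between the 6 and 0.162 between animals. The pair correlations among the 12 libraries followed those within strains in part (r = 0.727 across the 1081 pairs). The weights of the 3 components among the 12 libraries correlated with those within strains at 0.782, 0.803 and 0.611 across the 47 genes. Some pairs differed, such as Psma7 with Psmc3, at 0.0669 within strains and 0.558 among the libraries. Of the 12 libraries, 1 scored -18.6 on the second pattern, where the next lowest had -6.42. The values of this paragraph for the 12 libraries include it and were not computed without it.

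**Figure D4:**
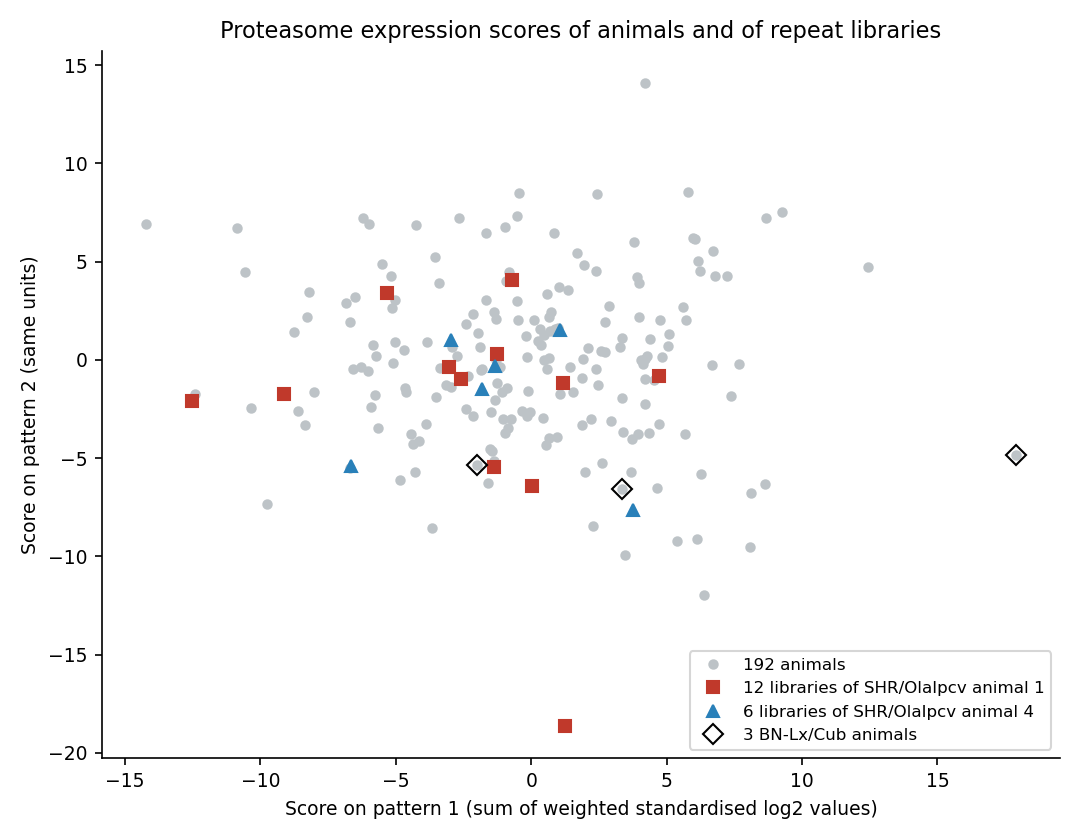
Scores on the first (x axis) and second (y axis) pattern of the 47 proteasome genes, as weighted sums of standardised log2 values, for 192 animals (grey), the 12 libraries of SHR/OlaIpcv animal 1 (squares), the 6 of animal 4 (triangles) and the 3 BN-Lx/Cub animals (diamonds). The 12 libraries of 1 animal spread from -12.5 to 4.71 on the first pattern, where all animals spread from -14.2 to 17.9.

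Scores on the first pattern had an SD of 4.72 over the 12 libraries and of 4.75 between animals of a strain, and those on the second 5.89 and 4.21. Without the library at -18.6 on the second pattern, the SD of the other 11 was 3.14. Over the 6 libraries of animal 4 the SDs were 3.54 and 3.69, below those between animals. The patterns were also close to those of the whole table. The first 4 components of all 20859 genes within strains gave an R2 of 0.968 for the first pattern and 0.952 for the second. The part of library preparation in the shared variation was not tested.

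Other genes of the pathway were taken beside the 47. Of 24 pathway genes, 3 were called by the F-test over strains (37.1% of all genes): the transcription factor Nfe2l2 (R2 = 0.485, adjusted p = 0.0151), the protease Ddi2 that activates Nfe2l1 (R2 = 0.486, adjusted p = 0.0362) and the ubiquitin shuttle Ubqln4 (R2 = 0.480, adjusted p = 0.0217). Within strains the first pattern correlated with the assembly factor Pomp at r = 0.832, with Nfe2l2 at 0.772, with Ngly1, the glycanase that processes Nfe2l1, at 0.888, and with the 19S subunit Sem1 at 0.683. It correlated with Nfe2l1 itself at -0.725 and with the ubiquitin receptor Adrm1 at -0.632. Other pathway genes lay on both sides, with Usp14 at 0.810, Ecpas at 0.808, Vcp at 0.0599, Ddi2 at -0.518 and Ubqln4 at -0.778. The first 4 components of the whole table gave an R2 of 0.968 for this pattern. The share of all genes that correlate with it this closely was not computed. Of the 3 inducible subunits left out of the group, 2 were called by the F-test. Psmb8 had an R2 of 0.615 (adjusted p = 1.38e-06) and Psmb9 one of 0.553 (adjusted p = 0.000339), while Psmb10 had 0.439 (adjusted p = 0.0851).

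Of 10 other gene lists, some varied with the patterns and some hardly did. The mean of 78 nuclear genes of oxidative phosphorylation correlated with the first pattern at r = 0.540 and with the second at 0.689, and that of 74 cytosolic ribosomal protein genes at 0.502 and 0.586. Of the cell type marker lists, all of whose genes were found, neurons had -0.446 with the first pattern, and microglia 0.595 and blood 0.447 with the second. Astrocytes had -0.242 and -0.182 with the first and second, and oligodendrocytes 0.245 and 0.261. The lists for endothelium, choroid plexus and liver had between -0.0799 and 0.0945 with either. The mean level ran from 13.35 to 13.84 over animals for the 6 neuron markers, from 9.12 to 9.91 for the 6 microglia markers and from 10.64 to 13.39 for the 5 blood markers. Their part in the patterns was not tested. In bulk tissue, fewer cells of a type and less RNA per cell cannot be told apart.

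Psmb6 left the group most clearly in the oldest of the gene tables, which covers 132 animals of 45 strains by Ensembl gene models. There its R2 was 0.849, against 0.637 for the next member, and the F-test gave an adjusted p of 1.31e-20 (63.9% of all genes in that table were called). Its strain means ran from 8.72 to 10.38 and fell into 2 groups with a gap between them, with 26 strains at 8.72 to 9.56 and 19 at 9.89 to 10.38. The HXB/BXH strains divided into 17 low and 13 high, with BN-Lx/Cub at 9.36 and SHR/OlaIpcv at 10.06. Relative to the other members it was called in 23 of 45 strains, 15 of them higher and 8 lower, against 4.79% of pairs over all genes.

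The table holds a further gene of this kind, LOC100360846, which RefSeq names Psmb6l1, on chromosome 2 at 96031951 to 96032722 of rn6, minus strand. Psmb6 itself lies on chromosome 10 at 57131386 to 57133637, plus strand. In that table LOC100360846 had an R2 of 0.798 (adjusted p = 9.40e-16), and over the 45 strain means it ran against Psmb6 (Pearson r = -0.858, Spearman rho = -0.649). It read 10.27 to 10.83 in the 26 strains low for Psmb6 and 9.43 to 10.05 in the 19 strains high for it, so that the groups did not overlap. When the linear values of both genes were added, the log2 of the sum ran from 10.79 to 11.24 over strains with an R2 of 0.323, below the 0.336 expected with no strain effect. BXH2/Cub, the strain lowest for Psmb6 in the RefSeq table, had a sum of 11.04 there, against a mean of 11.03. In the v6 table Psmb6 had a mean of 11.08 and an R2 of 0.400 (adjusted p = 0.194, where 31.7% of all genes were called), and LOC100360846 a mean of 4.44. LOC100360846 still differed between strains there, with means from 3.68 to 7.86 (R2 = 0.680, adjusted p = 1.17e-09 by the F-test). Over the 57 strain means of v6 the 2 genes had r = -0.303 and rho = -0.0302. The log2 of their sum ran from 10.79 to 11.42 in v6, with an R2 of 0.375. In the RefSeq table the strains of the low and high group had Psmb6 means of 10.97 ± 0.16 and 10.95 ± 0.12 (SD over strains). Over 44 shared strains the 2 tables correlated for Psmb6 at r = 0.00743, against 0.497 to 0.878 for the other 42 members. The v6 and RefSeq tables correlated for Psmb6 at 0.936 over 57 strains. The order of strains for Psmb6 thus differed in the oldest table from that in the other two, and how similar the 2 sequences are and how reads were divided between them was not tested.

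**Figure D5:**
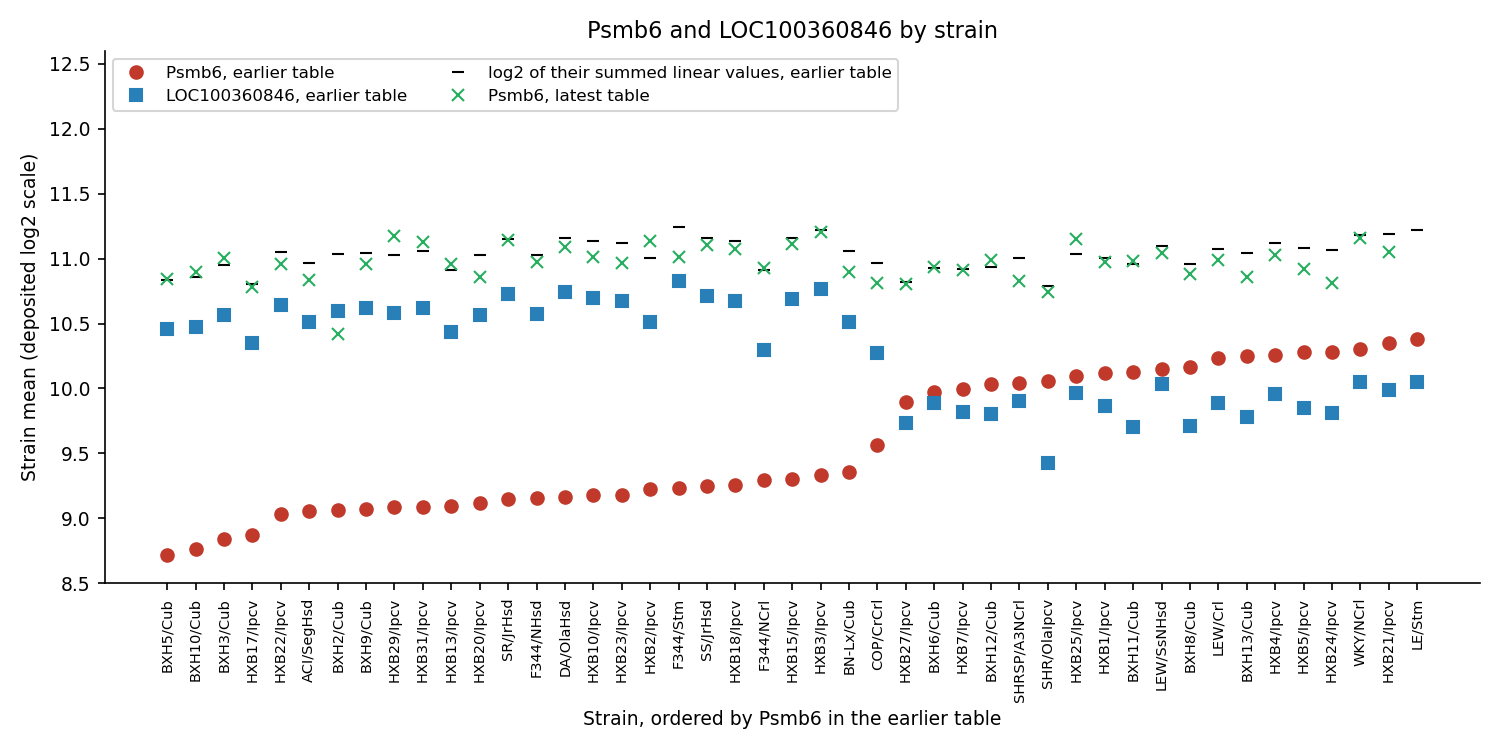
Strain means (y axis, deposited log2 scale) of Psmb6 (circles) and LOC100360846 (squares) in the oldest gene table for 45 strains (x axis, ordered by Psmb6), with the log2 of their summed linear values (dashes) and Psmb6 in the RefSeq table (crosses), named the earlier and latest table in the key. Where Psmb6 is low LOC100360846 is high, and the dashes stay between 10.79 and 11.24.

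The genes most like Psmb6 in that table were looked up after its values were seen. Of the 10 with the largest correlation over strain means, either way, 7 lay on chromosome 10 near Psmb6: Zmynd15 (r = 0.847), Ccdc42 (-0.842), Sox15 (-0.795), Shbg (-0.758), Tmem107 (-0.686), Cxcl16 (-0.680) and Rpain (-0.643). The other 3 were AABR07072809.1 on chromosome 20, which had the largest correlation (-0.904), LOC100360846 and LOC689899 on chromosome 14 (-0.701). The starts of the 7 lay from 1.96 Mb before to 0.474 Mb after that of Psmb6 on rn6.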

How the data were processed

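The authors deposited gene and transcript tables of log2-scale values made from ribosomal RNA depleted, stranded total RNA libraries. The submitters' processing notes list cutadapt 1.9.1, HISAT2 2.1.0 and 2.2.1, StringTie 1.3.5 and 2.2.1, Bowtie2 2.3.4.3 and 2.4.5, RSEM 1.3.1 and 1.3.3 and DESeq2. The oldest table used rn6 genomes carrying the variants of each strain, and the build and normalization of the RefSeq table are not given in the sources used here. No counts were used, so that depth is unknown.

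Libraries of an animal were averaged, and strains with 1 animal and 73 spike-ins were left out. Strain effects were tested with the moderated F-test of limma 3.58.1 in R 4.3.3 on all 20859 genes, with Benjamini-Hochberg adjustment (over genes and strains for single strains). Panels were compared on strain means, and mclust 6.1.1 clustered them. By the study's methods the animals of a strain are biological replicates, as stated for the strains of the oldest table. There the HXB/BXH rats and their progenitors came from one colony and the other classic strains from commercial suppliers, so that panel and source cannot be told apart. Genes were named where called, at the ends of a range or leading a pattern. The genes and lists were chosen with earlier results of these data known. The scripts were tested on simulated data. Columns of the authors' strain means were not used.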

Additional observations from a re-analysis of the deposited data

How the results depend on the processing

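With 4 genes called for strain as reported (37.1% of all genes), leaving out a replicate number gave 0 to 7 (14.8% to 30.4% of all genes), v6 1 (31.7%), v5 14 (63.9%), 1 library per animal 2 (35.6%), a batch covariate 8 (54.6%), only genes above the table median 2 (34.8%), leaving out a BN-Lx/Cub animal 2 to 4 (35.9% to 40.5%), leaving out the 4 genes outside the constitutive particle 2 (37.1%), and the HXB/BXH strains alone 2 (19.2%). The share of all genes moved with the setting as well. The median strain R2 was 0.493 to 0.572 without a replicate number (0.544 to 0.587 over all genes). With no strain effect 0.491 to 0.496 is expected in those smaller layouts, against 0.356 as reported, so these medians cannot be set beside the reported one. With the batch covariate the median was 0.661 (0.767 over all genes), on values from which batch was removed in a joint fit with strain. No matching value with no strain effect was computed there. Departures numbered 1 to 3 without a replicate number (0.405% to 0.736% of all pairs), 0 in v6 (1.13%), 49 in v5 (4.79%), 3 above the table median (0.602%) and 11 without BN-Lx/Cub animal 2 (1.27%), against 6 as reported (1.16%). The 2 calls between the progenitors (4.6% of all genes) became 2 to 4 without a replicate number (4.15% to 6.44%), 0 to 4 without a single animal (0.92% to 8.63%), 0 in v6, with 1 library per animal, with the batch covariate, with the replicate block and without the 5 animals least like the others, (1.88% to 4.11%), and 1 in v5 (4.35%), where the Psme4 difference turned to -0.0276. No value was given without replicate 1 there. Clusters were found for 0 genes without replicate 3, for 1 in v6, 6 in v5 and 0 with a criterion gain over 6, against 3. Without replicate 1 the clustered genes were Psma1 and Psmb6, and without replicate 2 Psma7 and Psmc3ip. None of these is among the 3 reported. Between HXB/BXH and classic inbred strains v5 called 24 members against 49.5% of all its genes, and v5 holds no FXLE/LEXF strains. The causes were not tested. Mean correlations stayed within 1 SD in each setting run, where the SD is the spread of the mean correlations of single members. That spread is wide beside the mean itself, so staying within it says little on how stable the mean is. Replicate numbers share no animal or day in the labels, and same-numbered animals deviated together little (mean r 0.0130 against -0.00626). With the replicate block 3 genes were called for strain and 6 departures. Over the alternatives of the 12 single-gene results, 113 comparisons kept the call, 81 lost it and 1 reversed. The adjusted p of Psmb6 in BXH2/Cub ran from 0.00161 to 0.265 over 17 settings, and that of Psme4 between the progenitors from 0.0135 to 0.942 over 16. Alternatives on single animals and on the 4 genes were chosen after seeing the data. With 2 or 3 animals a strain, small differences are not detectable.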
